A study of Mus musculus with 12 samples.

Results

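The RNA that co-purified with MIWI from Miwi +/- late spermatocytes was compared with the RNA of the same genotype's starting material (input), gene by gene. Genes were taken into the comparison when they reached 1 RPKM (a read density scaled to 1000 bases of gene and to a column of 1000000 reads) in at least 2 of the 6 value columns, which left 12246 of the 20345 listed mouse genes. The immunoprecipitation (IP) and the input of Miwi +/- animals, which carry 1 functional Miwi allele, are described here. The IP and input of Miwi ADH/- animals, whose remaining allele carries the ADH mutation of the catalytic site, and those of Miwi -/- animals, which lack the protein and so give the antibody's background, are set beside them. All groups are late spermatocyte RNA depleted of ribosomal RNA. The labels list 2 samples per group, and the data used here hold 1 column per group, so no replicate spread could be computed, no difference was tested, and no p-value is given. Whether a column is 1 sample or a pool of both, the age of the animals, and which samples came from whole testes or from sorted cells were not stated in the labels or the table.

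MIWI is a PIWI-clade Argonaute protein of male germ cells. It carries pachytene piRNAs, small RNAs that pair with other RNAs and can direct their cleavage by the catalytic site of the protein. In spermatocytes and round spermatids MIWI is also known to associate with messenger ribonucleoproteins and with the chromatoid body, a perinuclear granule that holds RNA and RNA-binding proteins. An IP of MIWI can therefore hold guide precursors, cleavage targets, stored mRNA and RNA that sticks to the beads or the antibody, and the IP from animals without MIWI shows the last kind alone.

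The table lists genes by Ensembl identifier without names, and 0 of the identifiers matched the RefSeq gene table at hand. The 27 lists of germ cell pathways and cell type markers therefore gave no values. No gene below is given a name, function or sequence, the level of the Miwi transcript was not checked against the genotype labels, and the labelled cell type was not checked against its markers. The RNAs are described instead by their level, by the gene lengths that the RPKM steps imply, and by what the same genes did in the IPs of the other genotypes. At most 2 identifiers are printed in each direction.

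Most RNAs were less abundant in the Miwi +/- IP than in the input. IP-minus-input differences on the log2(RPKM + 1) scale had a median of -0.77 and an interquartile range of 1.34, and the 5th and 95th percentiles lay at -2.48 and 0.91. Of the 12246 genes, 2624 lay above 0, 9505 below it and 117 at 0. At least 2-fold higher in the IP were 519 genes, 4.24% of those compared, and 4976 (40.6%) were at least 2-fold lower. The listed genes took 29.3% of the reads of the IP column and 52.3% of those of the input column, and RPKM is computed per all reads, so a gene with an unchanged share of the listed reads comes out below 0. With the columns set to equal totals of RPKM, the split was 1792 higher and 2230 lower, and with median-of-ratios scaling 1583 and 2086. Measured from the median of all kept genes, 1890 genes (15.4%) were at least 2-fold above it and 1894 (15.5%) at least 2-fold below.

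**Figure D1:**
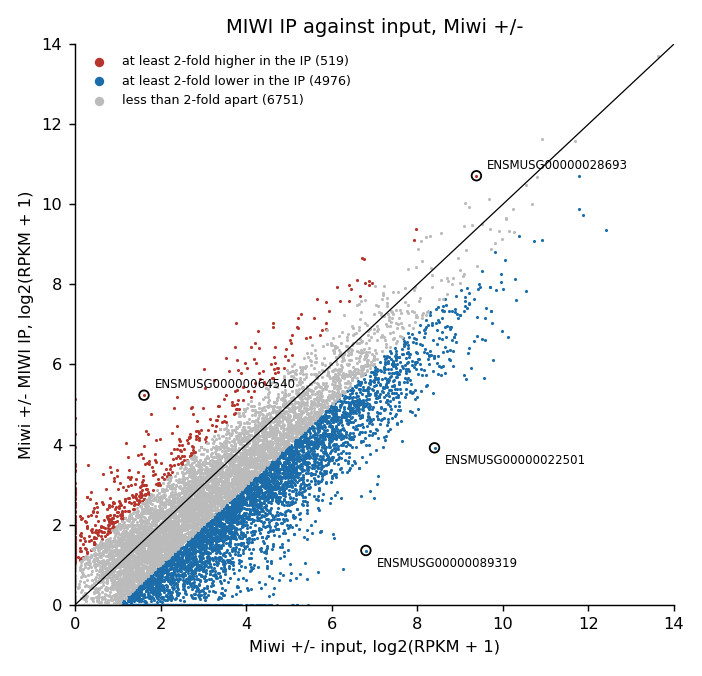
Each point is 1 of 12246 genes, with its level in the Miwi +/- input on the horizontal axis and in the Miwi +/- MIWI IP on the vertical axis, both as log2(RPKM + 1); the line marks equal values and circles mark the 4 genes named in the text. The 519 genes at least 2-fold higher in the IP lie mostly at low input levels, and the 4976 lower genes extend to the highest levels.

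In the catalytic mutant and in the control the distributions were placed differently. Miwi +/- had a median difference of -0.77 with 21.4% of the genes above 0. The Miwi ADH/- median was -0.41 with 31.6% above 0, and the Miwi -/- median was -1.37 with 12.9% above 0. At least 2-fold higher in the IP were 591 genes (4.83%) in Miwi ADH/- and 449 (3.67%) in Miwi -/-, while 3057 (25%) and 7463 (60.9%) were lower. The listed genes held 35.0% of the reads of the Miwi ADH/- IP and 18.3% of those of the Miwi -/- IP, against 47.9% and 53.7% of the reads of their inputs, so the order of the medians is that of the listed share of the IP reads. Their part in the difference between genotypes was not tested. In units of 1000000 reads, the IP totals were 5.89 for Miwi +/-, 10.6 for Miwi ADH/- and 4.17 for Miwi -/-, against 7.49, 5.49 and 7.10 for their inputs.

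**Figure D2:**
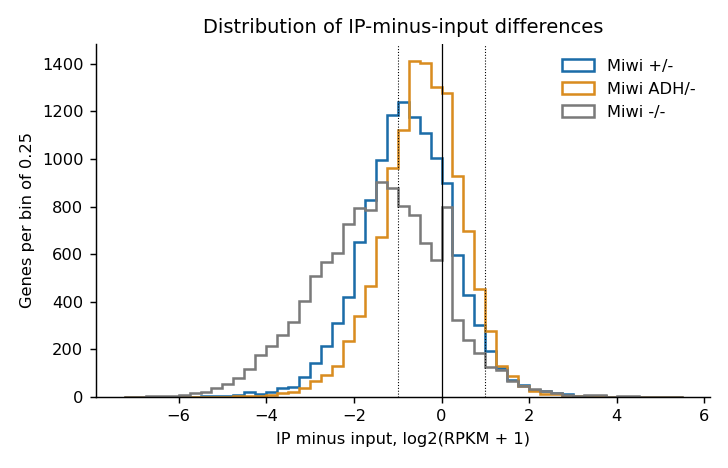
The number of genes per bin of 0.25 is plotted against the IP-minus-input difference in log2(RPKM + 1) for the 3 genotypes, with dotted lines at a 2-fold difference in either direction. The Miwi +/- distribution, with its median at -0.77, lies between those of Miwi ADH/- (-0.41) and Miwi -/- (-1.37).

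Classes of more abundant RNAs had lower median recovery in the IP. To take the level from a column outside the Miwi +/- comparison, genes were classed by their RPKM in the Miwi ADH/- input. The filter still ties the lowest class to the other columns. Its genes lie under 1 RPKM in the Miwi ADH/- input. They were kept only because at least 2 other columns reached 1 RPKM, and these can include the Miwi +/- IP. How far this choice shaped the median and the shares of that class was not tested. The median IP-minus-input difference in Miwi +/- was -0.32 for the 1190 genes under 1 RPKM, -0.47 for the 2566 genes of 1 to under 3 RPKM and -0.65 for the 3434 genes of 3 to under 10 RPKM. It was -0.91 for the 2768 genes of 10 to under 30 RPKM, -1.20 for the 1616 of 30 to under 100 RPKM, -1.53 for the 508 of 100 to under 300 RPKM and -1.74 for the 164 genes at 300 RPKM or more. Each class thus lay below the one before it.

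The share of genes at least 2-fold lower in the IP was 26.9% in the lowest of these classes and 76.2% in the highest, around the 40.6% of all genes. The share at least 2-fold higher was 10.6% in the lowest class and 1.22% in the highest, around the 4.24% of all genes. The 10.6% carries the limit given above, since the filter can keep genes of the lowest class for a high Miwi +/- IP. A pseudocount of 1 RPKM pulls the differences of genes near or below 1 RPKM towards 0. With a pseudocount of 0.1 RPKM the class medians were -0.56, -0.80, -0.81, -0.99, -1.24, -1.55 and -1.74 from the lowest class to the highest, so the order held and the distance between the ends shrank. With the level taken from the Miwi -/- input the medians ran from -0.48 in the lowest class to -1.66 in the highest.

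Summed over a class, which needs no pseudocount, the RPKM of the IP was 0.833 of that of the input in the lowest class and 0.465 and 0.498 in the 2 highest. In the highest class the summed ratio corresponds to a log2 value of -1.01, against a median of -1.74. This gap between sum and median was smaller in the classes below it: the summed log2 ratio was -0.91 for genes of 30 to under 100 RPKM, against a median of -1.20, and -0.58 for those of 3 to under 10 RPKM, against -0.65.

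The same order by level appeared with the catalytic mutant and without MIWI. In Miwi ADH/-, with levels taken from the Miwi +/- input, the class medians ran from -0.02 in the lowest class to -1.06 in the highest. In Miwi -/-, with levels from the Miwi ADH/- input, they ran from -0.71 to -3.03. The distance between the lowest and the highest class was thus present in the antibody control too, and whether it differs between genotypes was not tested. In these genotypes as well, the filter kept the genes of the lowest class for their values in other columns.

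**Figure D3:**
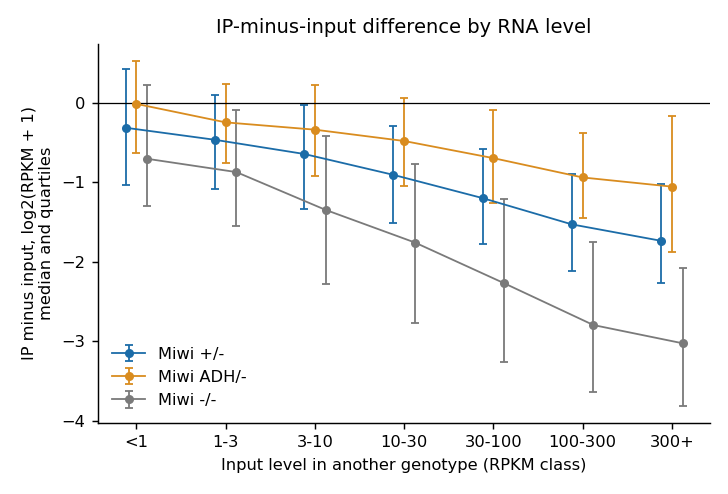
Points show the median IP-minus-input difference in log2(RPKM + 1) of genes classed by input level in another genotype (RPKM classes on the horizontal axis), and bars show the quartiles over genes, for Miwi +/-, Miwi ADH/- and Miwi -/-. In Miwi +/- the medians run from -0.32 in the lowest class to -1.74 in the highest, and the Miwi -/- control lies below them in every class.

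Gene length went with the difference as well, and length and level went together. The kept genes were cut into 5 equal bins by length. From the shortest bin (up to 878 bases) to the longest (2833 bases and more), the median difference in Miwi +/- was -1.09, -0.93, -0.79, -0.69 and -0.49. The same bins had median Miwi ADH/- input levels of 10.4, 9.56, 7.30, 5.66 and 4.59 RPKM, so shorter genes were also the more abundant ones. Within a class of level the distance between the shortest and the longest bin was smaller in most classes: medians were -1.01 and -0.79 at 10 to under 30 RPKM, -1.30 and -1.10 at 30 to under 100 RPKM, and -0.54 and -0.37 at 1 to under 3 RPKM. Only at 3 to under 10 RPKM, with -1.01 for the shortest bin and -0.47 for the longest, was it close to the distance over all genes. Within each length bin, in turn, the medians of the level classes with at least 20 genes kept their order by level.

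Spread also went with length. The interquartile range of the difference was 1.72 in the shortest bin and 1.09 in the longest. The shortest bin held both the largest share of genes at least 2-fold higher in the IP (6.37%, against 4.24% of all) and the largest share at least 2-fold lower (52.3%, against 40.6%). In the longest bin these shares were 3.10% and 27.2%. Short genes collect fewer reads at the same RPKM.

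**Figure D4:**
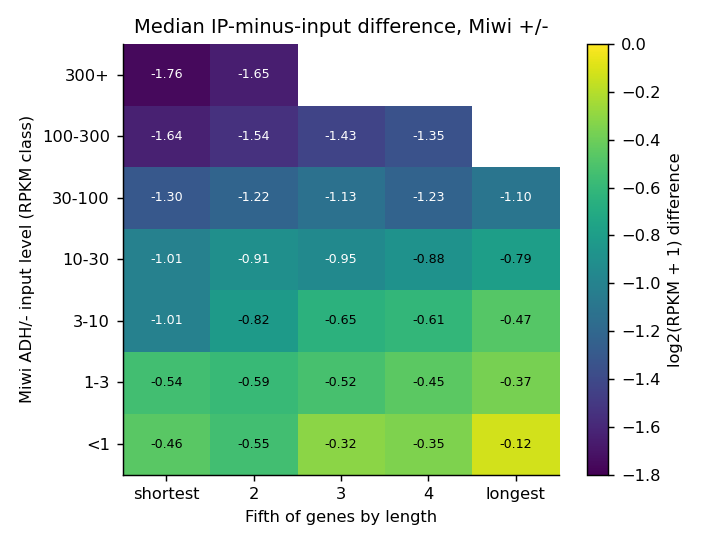
Cells give the median IP-minus-input difference in log2(RPKM + 1) in Miwi +/- for genes of each of 5 equal bins by length (horizontal axis) and each class of Miwi ADH/- input level (vertical axis, RPKM); cells with under 20 genes are blank. Medians change more from the bottom to the top of a column of the map, for example from -0.46 to -1.76 in the shortest bin, than from left to right within a row.

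The 519 RNAs at least 2-fold higher in the IP had a median level of 6.34 RPKM in the IP, with quartiles of 3.20 and 17.8 RPKM, and of 1.48 RPKM in the input, with quartiles of 0.32 and 5.64 RPKM. All kept genes had medians of 4.14 RPKM in the IP and 7.37 RPKM in the input. In the Miwi ADH/- input, which did not choose them, the 519 had a median of 2.88 RPKM, against 6.90 RPKM for all kept genes. Their median length was 1385 bases, against 1617 bases for all kept genes. The Miwi +/- levels define the group and are a description only. Exact 95% Clopper-Pearson intervals of the ratio, which take the reads of both columns as given in sum and cover counting error only, excluded equality for 498 of the 519, and for 312 the lower bound itself lay above 2-fold. Those intervals use the same reads that chose the genes, so both counts are a description only. No read was present in the input for 88 of the 519.

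Few of these RNAs were far above their input on the deposited scale, where the median of all 12246 kept genes lay at -0.77. The 4-fold and 8-fold counts below are out of those 12246 genes. They were not repeated on the other scales, which moved the 2-fold counts strongly. At least 4-fold higher were 86 genes, with a median length of 654 bases, and at least 8-fold higher were 12 genes, which were short (median 131.5 bases) and had a median of 15 reads over both columns. On the other side 1317 genes were at least 4-fold lower and 232 at least 8-fold lower, the last group with a median of 2 reads in the IP and 111.5 reads in the input, and a median length of 691 bases. Genes just inside the 2-fold limit on the higher side had differences of 1.00 to 1.01 and those just outside it 0.99 to 1.00 (5 genes each), with 12 to 292 and 7 to 526 reads over both columns, so the limit separates genes that counting cannot tell apart.

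What the RNAs recovered with functional MIWI did in the other IPs can be read without shared columns, since each genotype has an IP and an input of its own. Of the 519 genes, 344 (66.3%) lay above 0 in Miwi ADH/-, against 31.6% of all kept genes, and 193 (37.2%) lay above 0 in Miwi -/-, against 12.9% of all. At least 2-fold higher in the Miwi ADH/- IP were 160 of them (30.8%, against 4.83% of all), and 113 (21.8%, against 3.67% of all) were so in the Miwi -/- IP. Another 175 of the 519 (33.7%) were at least 2-fold below the input in Miwi -/-, against 60.9% of all genes. Their median difference was 0.52 in Miwi ADH/- and -0.32 in Miwi -/-, against -0.41 and -1.37 for all genes, so the group lay above the median of all genes in both, the control included. The 519 had low levels, with a median of 2.88 RPKM in the Miwi ADH/- input. Genes of 1 to under 3 RPKM there had a Miwi -/- median of -0.87, with 4.64% at least 2-fold higher and 44.9% lower. The part of level in these comparisons was not tested.

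Of the 4976 RNAs at least 2-fold lower in the Miwi +/- IP, 2191 (44.0%) were also lower in the Miwi ADH/- IP, against 25% of all genes, and 3830 (77.0%) in the Miwi -/- IP, against 60.9% of all. Their medians were -0.88 and -2.07, below those of all genes. The 4976 had a median of 11.9 RPKM in the Miwi ADH/- input, against 6.90 RPKM for all kept genes, and the part of level was not tested here either. In the opposite direction, 61 of the 4976 (1.23%, against 4.83% of all genes) were at least 2-fold higher in the Miwi ADH/- IP and 79 (1.59%, against 3.67% of all) in the Miwi -/- IP. Of the 519 higher genes, 49 (9.44%, against 25% of all) were at least 2-fold lower in the Miwi ADH/- IP, beside the 175 already given for Miwi -/-.

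Followed over the whole range, the median differences of groups of genes kept the same order in the 3 IPs, while the order of single genes was shared only in part. Genes were divided into 10 equal bins by their difference in Miwi +/-, and the medians of the lowest and of the highest bin were -2.48 and 0.91 there. The same bins had medians of -1.39 and 0.40 in Miwi ADH/- and of -2.75 and -0.35 in Miwi -/-, and every bin between them lay above the one before it in both. Across genes, the correlation of the Miwi +/- difference with that of Miwi ADH/- was 0.526 (Pearson) and 0.536 (Spearman) over the 12246 genes, and with that of Miwi -/- it was 0.435 and 0.437. Over the 4142 genes with at least 200 reads in each IP and input pair these were 0.828 and 0.817 for Miwi ADH/-, and 0.721 and 0.716 for Miwi -/-. Genes are not independent replicates, and the columns share the filter, the gene annotation, and the level and length of each gene. These values therefore describe the columns and carry no test.

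**Figure D5:**
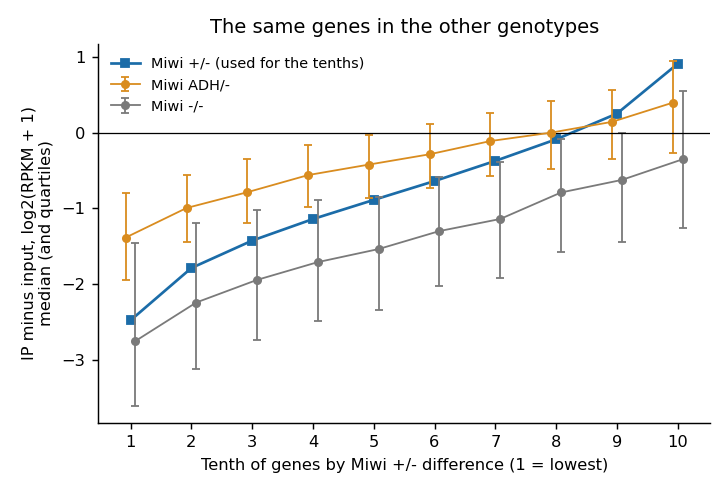
Genes are grouped in 10 equal bins by their Miwi +/- IP-minus-input difference (horizontal axis, 1 is the lowest), and points give the median difference in log2(RPKM + 1) in Miwi +/-, Miwi ADH/- and Miwi -/-, with quartiles over genes for the last 2. The medians run from -2.48 to 0.91 in Miwi +/-, from -1.39 to 0.40 in Miwi ADH/- and from -2.75 to -0.35 in Miwi -/-.

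Some RNAs were both abundant in the IP and higher there than in the input. At 100 RPKM or more in the Miwi +/- IP, 35 genes were at least 2-fold above their input. This limit uses the IP column of the difference itself, and the share among all genes at that IP level was not computed. By the Miwi ADH/- input instead, 8 of 508 genes (1.57%) of 100 to under 300 RPKM were higher. At 300 RPKM or more 2 of 164 (1.22%) were, against 4.24% of all kept genes. For 29 of the 35 the counting interval, from the same reads that chose them, lay wholly above 2-fold. The IP levels of the 35 ran from 100.4 to 1675 RPKM with a median of 188 RPKM. Their input levels ran from 12.6 to 666 RPKM with a median of 57.7 RPKM. In Miwi ADH/-, 25 of the 35 (71.4%, against 4.83% of all kept genes) were at least 2-fold higher in the IP.

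In the Miwi -/- control the 35 lay on both sides of their inputs. In 18 of them (51.4%, against 3.67% of all kept genes) the control IP was at least 2-fold above its own input, with differences from 1.22 to 4.22, and their median level was 189 RPKM in the Miwi +/- IP, against 246 RPKM in the Miwi -/- IP. All 18 were also at least 2-fold higher in the Miwi ADH/- IP, as were 4.83% of all kept genes. In 8 of the 35 (22.9%, against 60.9% of all) the control IP was at least 2-fold below its input, with differences from -3.51 to -1.32. Those 8 had a median of 130 RPKM in the Miwi +/- IP, against 16.4 RPKM in the Miwi -/- IP, and input medians of 40.1 RPKM in Miwi +/- and 82.3 RPKM in Miwi -/-. Of these 8, 4 were at least 2-fold higher in the Miwi ADH/- IP. The remaining 9 were less than 2-fold apart in the control. The 3 groups were formed on the control values, and their difference there is a description.

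The order of the most abundant RNAs differed between IP and input. Of the 100 highest genes by RPKM in the Miwi +/- IP, 59 were among the 100 highest of the input, and of the 20 highest, 10 were shared. Among the 200 highest genes of the Miwi +/- input, 1 was at least 2-fold higher in the IP and 146 at least 2-fold lower. Ranked by the Miwi ADH/- input instead, these were 3 and 155 (77.5% lower), against 4.24% higher and 40.6% lower among all kept genes. The listed reads were spread a little less evenly in the IP: the 100 most-read genes held 19.6% of them, against 17.1% in the input, and 777 genes held 50% of them, against 860 in the input. The inputs also differed among themselves. These values were 18.9% and 816 genes in the Miwi ADH/- input, and 18.1% and 773 genes in the Miwi -/- input.

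On the deposited scale, ENSMUSG00000028693 was the single gene of the 200 highest in the Miwi +/- input that was at least 2-fold higher in the IP. It had 1675 RPKM in the IP and 666 RPKM in the input, a ratio of 2.52 with a counting interval of 2.45 to 2.58 from 16416 and 8300 reads, and it ranked 4 in the IP and 55 in the input. In Miwi ADH/- it had 1640 RPKM in the IP and 491 RPKM in the input, a ratio of 3.34 (3.23 to 3.45). The control did not lack this RNA: it had 2298 RPKM in the Miwi -/- IP and 588 RPKM in the Miwi -/- input, a ratio of 3.91 (3.801 to 4.02). The IP was therefore above the input in all 3 genotypes. The intervals cover counting error only, and with 1 column per group the order of the 3 ratios was not tested. Other genes of the 200 lay just under the limit: the 5 highest had differences from 0.91 to 1.33 in Miwi +/-. In the Miwi -/- IP, 3 of the 5 were at least 2-fold higher and 1 at least 2-fold lower. Of all kept genes, 3.67% were higher there and 60.9% lower.

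ENSMUSG00000064540 had the largest difference among genes with at least 1 RPKM in both Miwi +/- columns and a mean level at or above the median, 3.62 on the log2 scale. It stood at 36.6 RPKM in the IP and 2.05 RPKM in the input. Its implied length was 65.0 bases, so these values are 14 reads and 1 read, and the ratio of 17.8 has a counting interval of 2.71 to 753. In Miwi ADH/- it had 1.45 RPKM in the IP (1 read) and 16.8 RPKM in the input (6 reads), and no read in either Miwi -/- column. The direction thus differed between the 2 genotypes that make MIWI, on few reads.

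Among the RNAs left behind, ENSMUSG00000089319 had the lowest difference by the same limits, -5.44. It had 1.56 RPKM in the Miwi +/- IP (1 read) and 110.2 RPKM in the input (90 reads), an input-to-IP ratio of 70.7 with a counting interval of 12.4 to 2825. This short gene, with an implied length of 109 bases, was also far below its input in the other IPs: 1 read in the Miwi ADH/- IP against 54 in its input, and 0 reads in the Miwi -/- IP against 80 in its input. The lower bound of the input-to-IP ratio was 17.9 in Miwi ADH/- and 12.4 in Miwi -/-.

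ENSMUSG00000022501 had the lowest difference among the 200 highest genes of the input, -4.48. It had 14.1 RPKM in the Miwi +/- IP and 337 RPKM in the input, from 39 and 1184 reads, so that the input was 23.9-fold above the IP (17.3 to 33.7). In Miwi ADH/- it had 86.2 RPKM in the IP and 900.1 RPKM in the input, 10.4-fold above the IP (9.41 to 11.6). In Miwi -/- it stood at 8.18 RPKM in the IP (16 reads) and was nearly absent from the input, at 0.90 RPKM (3 reads). Its IP level was thus similar in Miwi +/- and in the control, and its input levels were far apart.

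The 15 highest and the 15 lowest genes by these limits were also followed in the other genotypes. Of the 15 highest, with differences from 2.38 to 3.62, 10 were at least 2-fold higher in the Miwi ADH/- IP and 6 in the Miwi -/- IP, while 2 and 4 were lower. Of the 15 lowest, with differences from -5.44 to -3.86, 14 were at least 2-fold lower in the Miwi ADH/- IP and 13 in the Miwi -/- IP. Of all kept genes 4.83% were higher and 25% lower in Miwi ADH/-, and 3.67% were higher and 60.9% lower in Miwi -/-, so lower calls were the commoner kind before any choice of genes. In both groups 6 genes had under 10 reads in the lower of the 2 Miwi +/- columns.

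A further group was defined by inputs alone. In 361 kept genes the Miwi -/- input was at least 8-fold below the Miwi ADH/- input, that is, these transcripts were present with catalytically mutant MIWI and nearly missing without the protein; their medians were 21.8 RPKM in the Miwi ADH/- input and 0.34 RPKM in the Miwi -/- input. In Miwi +/- they had a median of 3.88 RPKM in the IP and 9.87 RPKM in the input. Their median IP-minus-input difference was -1.31, against -0.77 for all genes; 210 of the 361 (58.2%, against 40.6% of all) were at least 2-fold lower in the IP and 14 (3.88%, against 4.24%) higher. The choice itself asked for a high Miwi ADH/- input, so their level there, above the 6.90 RPKM of all kept genes, is a description only. The level classes use that same column. The mean of the level-class medians over the classes they fall in was -1.003, between the medians of all genes and of the 361. Their median length was 824 bases. In bulk RNA, fewer cells that contain a transcript and less of it per cell cannot be told apart.

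Depth limited the statements on scarce RNAs. A gene of 1000 bases needs 0.51 RPKM in the IP and 0.40 RPKM in the input for 3 reads. Among the kept genes, 112 had reads in the IP and none in the input, with at most 36 reads, and 1067 had reads in the input and none in the IP, with at most 217. Set against a floor of 3 reads in the empty column, 80 of the 112 genes were at least 2-fold higher in the IP and 733 of the 1067 at least 2-fold lower, with bounds of up to at least 15.3-fold higher and at least 56.8-fold lower. These counts are a description only, since the filter can keep a gene with 1 empty column for its value in the other. Listed genes also had fewer reads in the IP column (1.73e+06) than in the input column (3.92e+06). Genes with 10 to 19 reads in both columns together were called most often as higher, 9.63% of 758 genes, and 47.8% of them were at least 2-fold lower. Of the 3911 genes with 200 to 999 reads, 2.28% were higher and 43.4% lower. At 1000 reads or more, 4.32% of 1343 genes were higher and 52.5% lower. Neither share thus changed steadily with the number of reads.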

How the data were processed

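RNA from MIWI IPs and inputs of late spermatocytes was sequenced after ribosomal RNA depletion. TopHat, Bowtie and mouse build mm9 are named in the submitters' processing notes, with no version or role; the sources used here name no counting tool or annotation. RPKM values in the deposited table were computed by the authors. Only the Miwi +/- columns carry that unit in their header; it was taken to hold for the other 4, whose values step in the same proportions.

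Differences are log2(RPKM + 1), with a pseudocount of 1, between single columns, over genes that reached 1 RPKM in 2 or more columns, and understate changes of low genes. Reads per gene were recovered from the largest step of which every value, scaled by depth, is a multiple. They are therefore the smallest counts that the values allow. With a tolerance of 0.002 reads plus 1e-07 of the count, this held for 100% of the values of genes present in several columns. The step was searched for under that same tolerance, so this share is not a separate check. The 2893 genes with a value in at most 1 column were taken as 1 read there. Relative depths are the commonest exact ratios between columns. The absolute read total was set where lengths of the 400 shortest genes came out whole (84.5% within 0.05, against 45.0% for the next candidate); read totals, listed shares and lengths depend on it, reads per gene and intervals do not. Counting intervals are 95% Clopper-Pearson intervals, which say nothing of PCR copies or of variation between animals. Nor do they allow for the choice of genes by their Miwi +/- difference. The recovery of reads was tried on data simulated from the recovered steps, so it is not an independent check. In that simulation the IP was drawn from the input with no shift of the median, unlike these data. It therefore does not check the counts by size given above. Python 3.11.15, numpy 2.4.6, pandas 2.3.3 and scipy 1.17.1 were used.

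The planned rule for named genes asked for a symbol. No identifier could be matched, so that clause was dropped and the first gene of each clause was named: the highest and the lowest among genes with at least 1 RPKM in both columns and a mean at or above the median, and the highest and the lowest of the 200 highest genes of the input. The members, the lists and the limits were chosen with earlier results of these data known. The classes by level, length, reads and inputs were added after the values were seen. Alternatives tried were pseudocounts of 0.1 and 5 RPKM, no filter and a filter of 5 RPKM, 3 scalings, and a minimum of 20 reads.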

Additional observations from a re-analysis of the deposited data

Results flagged for a closer look

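ENSMUSG00000022501 moved in opposite directions in 2 genotypes: its log2 IP-minus-input difference was -4.48 in Miwi +/- and 2.27 in Miwi -/-, where 16 reads stood in the IP and 3 in the input. ENSMUSG00000064540 had a difference of 3.62 in Miwi +/- and of -2.86 in Miwi ADH/-, from 14 IP reads and 1 input read in Miwi +/- and 1 IP read and 6 input reads in Miwi ADH/-. With 1 column per group, the difference between genotypes was not tested in either case.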

How the results depend on the processing

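Counts by size depend on the pseudocount, the filter and above all the scale. With a pseudocount of 0.1 RPKM 841 genes were at least 2-fold higher in the Miwi +/- IP, and with 5 RPKM 169 were higher and 2574 lower, against 519 and 4976 as deposited. A filter of 5 RPKM in at least 2 columns left 254 higher genes. Relative to the median difference 1890 genes were higher and 1894 lower, with columns set to equal totals of RPKM 1792 and 2230, and with median-of-ratios scaling 1583 and 2086; the median of all genes was -0.77 as deposited, -0.07 with equal totals and -0.09 with median-of-ratios scaling. For the counts measured from the median difference, a pseudocount of 0.1 RPKM gave 2857 genes below, one of 5 RPKM gave 450 above, no filter gave 3625 below, and the filter of 5 RPKM gave 1238 above and 1193 below. The cause was not tested beyond what the construction of each alternative changes. The 4 named genes kept their direction in all 6 alternatives run for each, but these were unlikely to change it. A pseudocount cannot alter a direction. The other alternatives raised the differences, those of the 2 lower genes to at most -4.35 and -3.39. A minimum of 20 reads in the Miwi +/- pair of columns, added after the values were seen, left 396 higher and 4384 lower genes. ENSMUSG00000064540, with 14 reads in the IP and 1 in the input, lies under this minimum. The alternatives for the medians of pathway lists were not run, since no list member could be matched. No replicate could be left out, with 1 column per group. No paired analysis was possible because the columns carry no replicate numbers.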
